A study of Homo sapiens with 8 samples.

Results

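Coding promoters that carried H3K27ac in every library of the series are described here. H3K27ac is histone H3 acetylated at lysine 27, and its sites were found by sequencing immunoprecipitated chromatin (ChIP-seq). The cells were A549, an established line from a human lung adenocarcinoma, whose mutated KEAP1 leaves the transcription factor NRF2 persistently active. Cells were harvested 48 h after transfection with control siRNA (3 libraries) or with siRNA against NRF2 (3 libraries), and all groups share the KEAP1-mutated background of this single line. NRF2 siRNA number 28 was used in replicate 1 and number 30 in replicates 2 and 3. The 2 input samples were not analysed here. Peaks of the 6 libraries were merged where they overlapped by at least 1 bp, and a merged region was kept when it was narrower than 10 kb, was called in all 6 libraries and held the start of a transcript of a protein-coding gene. Of 49186 merged regions, 6825 met these 3 conditions. They held starts of 7567 of 20162 coding genes, or 37.5%. The peak calls and the merged width chose these promoters, so both are given as a description without a test. The 5 epithelial markers KRT8, KRT18, KRT7, CDH1 and EPCAM had a promoter called in all 6 libraries, of which EPCAM alone was narrow enough to be a member, and KRT19 had none. Of 8 annotated markers of leukocytes, fibroblasts, endothelium, hepatocytes and alveolar type 2 cells, 6 had a promoter called in 0 libraries, and COL1A1 and ALB in 2.

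Acetylation of lysine 27 loosens the contact of histones with DNA and recruits bromodomain proteins, and it flanks the nucleosome-free stretch at the start of active genes as well as active enhancers. Many mammalian coding genes share a start region with a neighbour that is read in the opposite direction, an arrangement called a divergent or bidirectional promoter. NRF2 pairs with a small MAF protein and binds the antioxidant response element, through which it drives genes for glutathione and thioredoxin cycles, NADPH supply, iron and haem handling, and drug export. KEAP1 normally hands NRF2 to a ubiquitin ligase for destruction.

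The start windows of the promoters that moved most are shown first, since the results below turn on them. Each window runs from 250 bases before to 50 bases after the coding start nearest the centre of the region (GRCh37, 5′ to 3′ in the direction of that gene). A coding start is here the start of any transcript of a protein-coding gene, whether or not that transcript itself encodes a protein. The 3 largest falls under NRF2 siRNA were ABCB6 (chr2:220082863-220083162, minus strand), TXN (chr9:113018738-113019037, minus strand) and PIR (chrX:15511362-15511661, minus strand). The largest rise was DOCK2 (chr5:169122603-169122902, plus strand). The 2 divergent promoters of largest change were NLN/SGTB (window of SGTB, chr5:65018813-65019112, minus strand) and ACYP1/ZC2HC1C (window of ZC2HC1C, chr14:75535196-75535495, plus strand). GCLM (chr1:94374297-94374596, minus strand) was added because it is a classical NRF2 target. The start shown belongs to a nonsense-mediated decay transcript for ABCB6 and to a retained-intron transcript for DOCK2. For PIR and GCLM it belongs to a transcript without a defined coding sequence. Capitals mark every match, on either strand, to the antioxidant response element core TGACNNNGC, the AP-1 site TGACTCA, the TATA box TATAAA, the CCAAT box CCAAT, the GC box GGGCGG, the ETS site CCGGAAGT and the nuclear respiratory factor 1 core CGCATGCG.
ABCB6: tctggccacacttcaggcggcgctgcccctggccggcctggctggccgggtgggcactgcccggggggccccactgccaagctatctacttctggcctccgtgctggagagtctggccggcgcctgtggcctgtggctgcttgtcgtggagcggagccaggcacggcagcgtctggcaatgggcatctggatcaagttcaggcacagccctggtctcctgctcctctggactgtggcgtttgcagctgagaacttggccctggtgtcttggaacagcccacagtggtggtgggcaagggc
TXN: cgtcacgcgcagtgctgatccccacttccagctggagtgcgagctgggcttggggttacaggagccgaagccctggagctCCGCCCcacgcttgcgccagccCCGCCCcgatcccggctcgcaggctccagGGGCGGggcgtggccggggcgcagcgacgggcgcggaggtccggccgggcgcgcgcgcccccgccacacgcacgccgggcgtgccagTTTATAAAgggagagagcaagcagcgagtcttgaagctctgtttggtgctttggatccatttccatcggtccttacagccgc
PIR: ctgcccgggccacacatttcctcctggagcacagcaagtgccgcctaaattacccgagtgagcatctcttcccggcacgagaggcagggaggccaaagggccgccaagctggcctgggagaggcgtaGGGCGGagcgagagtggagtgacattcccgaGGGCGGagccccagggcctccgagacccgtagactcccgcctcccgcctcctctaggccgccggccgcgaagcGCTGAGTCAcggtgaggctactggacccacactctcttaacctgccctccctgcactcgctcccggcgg
DOCK2: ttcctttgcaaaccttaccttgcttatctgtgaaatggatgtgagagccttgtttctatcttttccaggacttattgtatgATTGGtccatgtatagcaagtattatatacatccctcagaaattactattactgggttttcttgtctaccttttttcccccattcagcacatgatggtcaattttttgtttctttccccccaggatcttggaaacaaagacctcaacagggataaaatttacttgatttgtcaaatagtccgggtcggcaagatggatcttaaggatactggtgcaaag
NLN/SGTB: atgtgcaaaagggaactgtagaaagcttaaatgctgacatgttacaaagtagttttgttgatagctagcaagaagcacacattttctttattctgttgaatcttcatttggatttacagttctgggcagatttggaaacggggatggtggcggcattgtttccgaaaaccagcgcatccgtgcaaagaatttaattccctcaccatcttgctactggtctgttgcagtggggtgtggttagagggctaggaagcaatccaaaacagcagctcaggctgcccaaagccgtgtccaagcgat
ACYP1/ZC2HC1C: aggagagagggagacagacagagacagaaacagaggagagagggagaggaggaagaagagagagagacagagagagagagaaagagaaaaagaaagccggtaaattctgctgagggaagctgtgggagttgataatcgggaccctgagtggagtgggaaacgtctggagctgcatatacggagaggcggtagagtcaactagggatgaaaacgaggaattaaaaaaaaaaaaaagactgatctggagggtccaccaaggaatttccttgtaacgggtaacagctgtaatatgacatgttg
GCLM: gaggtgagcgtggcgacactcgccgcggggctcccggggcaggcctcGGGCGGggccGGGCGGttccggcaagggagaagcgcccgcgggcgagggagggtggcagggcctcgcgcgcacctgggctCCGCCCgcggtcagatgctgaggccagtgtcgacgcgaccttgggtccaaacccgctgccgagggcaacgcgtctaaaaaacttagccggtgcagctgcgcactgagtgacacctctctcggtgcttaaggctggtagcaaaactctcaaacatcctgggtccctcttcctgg
TXN was shown at its canonical start, with a TATA match 30 bases upstream and 3 GC boxes. PIR held an antioxidant response element 19 bases upstream of the start shown, which lay 45 bp from the canonical PIR start. GCLM had 3 GC boxes and no element match, and the start shown lay 640 bp from its canonical start. DOCK2, at 38.7% G and C, had no GC box. The windows of ABCB6, NLN/SGTB and ACYP1/ZC2HC1C held none of the 7 motifs. None of these windows was taken at a canonical start. The start shown lay 768 bp from the canonical one for ABCB6, 926 bp for SGTB and 898 bp for ZC2HC1C. The windows of NLN/SGTB and ACYP1/ZC2HC1C therefore do not describe the sequence at the closest opposite starts of these pairs. No match says only that these letters were not in the window.

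The members' start windows were rich in G, C and CpG. The median window had 64.3% G and C, and the ratio of observed to expected CpG was 0.83. The ratio was at least 0.6 in 77.0% of members, against 67.6% of the canonical starts of 19881 coding genes and 43.1% of the 9298 canonical starts that lay in no peak of any library. The GC box was in 63.0% of the members' windows and 61.4% of all canonical start windows. The ETS site, bound by factors such as GABPA, was in 7.79% of member windows, 6.16% of all and 1.45% of those in no peak. The nuclear respiratory factor 1 core was in 3.62% of member windows, 2.85% of all and 0.957% of those in no peak. The TATA box went the other way, with 5.71% of member windows, 9.62% of all and 14.6% of those in no peak. CCAAT boxes were in 32.0% of member windows and 36.0% of all. The 9-letter element core was in 1018 member windows, or 14.9% (95% Wilson interval 14.1 to 15.8%, counting error only), and in 14.0% of all windows, so at this length the core was about as frequent at coding starts in general. The AP-1 site was in 5.03% of member windows, 3.56% of all and 4.35% of those in no peak. Members are shown at any coding start and the other sets at canonical starts only. Among the 5759 members that hold a canonical start (below), the AP-1 site was in 3.33%, the GC box in 69.4%, the ETS site in 8.94%, the nuclear respiratory factor 1 core in 4.10% and the TATA box in 4.50%, and among the 1066 that do not, the AP-1 site was in 14.2%.

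The core with an AP-1 site inside it, TGACTCAGC, is the form of the element bound by NRF2 with small MAF partners and by AP-1 relatives. The choice of these 9 letters and of the whole region as the search space was made after the data were seen. Of the 56 members whose rank fell under NRF2 siRNA (below), 25 held it somewhere in the region, or 44.6%, against 418 of 6825 members, or 6.12%, and 1 of the 22 whose rank rose. The members that fell were wider, and per length the density was 1.15 sites per 10 kb, against 0.21 over all members and 0.10 in those that rose. The contrast was smaller for the core TGACNNNGC. It was in 89.3% of the regions that fell, 64.9% of all members and 68.2% of those that rose. Its density was 4.93, 4.06 and 2.26 sites per 10 kb, and 26.8%, 14.9% and 13.6% of the start windows held it. In the 300-base start window alone, 6 of 56 (10.7%) held it, against 0.821% of members, 0.608% of members with a canonical start and 0.402% of all canonical starts. Among the 10 largest falls 7 held it, and among the 10 largest rises 0. Read from the side of the sequence, 25 of the 418 members with the element were called lower (5.98%) and 1 higher, while of the 6407 without it 31 were called lower (0.484%) and 21 higher. Members with the element had a median width of 4316 bp and those without 2408 bp. The sites of the named promoters that fell are shown with 16 bases on either side, with the 9 letters in capitals and read in the direction in which they spell TGACTCAGC. They lay at chr2:220082655-220082695 (plus strand) in ABCB6, chrX:15511406-15511446 (plus strand) in PIR, chr17:79881477-79881517 (plus strand) and chr17:79884827-79884867 (plus strand) in MAFG, chr16:1429060-1429100 (minus strand) in UNKL, chr11:746495-746535 (plus strand) in TALDO1, chr5:65020431-65020471 (minus strand) in NLN/SGTB, chr14:75535711-75535751 (minus strand) in ACYP1/ZC2HC1C, chr19:40970455-40970495 (plus strand) in BLVRB/SPTBN4 and chr1:222722337-222722377 (minus strand) in HHIPL2.
ABCB6: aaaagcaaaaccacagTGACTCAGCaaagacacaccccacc
PIR: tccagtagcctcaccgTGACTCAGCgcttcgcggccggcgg
MAFG: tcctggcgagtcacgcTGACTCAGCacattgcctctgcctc
MAFG: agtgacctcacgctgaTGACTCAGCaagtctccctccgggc
UNKL: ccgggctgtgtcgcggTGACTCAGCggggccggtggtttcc
TALDO1: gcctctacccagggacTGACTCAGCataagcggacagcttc
NLN/SGTB: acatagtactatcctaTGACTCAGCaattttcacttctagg
ACYP1/ZC2HC1C: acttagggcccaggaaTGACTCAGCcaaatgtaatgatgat
BLVRB/SPTBN4: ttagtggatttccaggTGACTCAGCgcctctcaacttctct
HHIPL2: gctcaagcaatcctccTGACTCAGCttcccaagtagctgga
A match is a description of the letters, not a bound site.

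Enrichment in these bulk samples, where fewer cells with an acetylated promoter and less acetylation per cell cannot be told apart, was compared through ranks, because the lists hold a fold enrichment over background for each peak but no read counts. Read depth is not in the files, and the study's own account gives fewer reads for both replicate 1 libraries than for the others. The within-list percentile is the share of peaks in the same list that have a lower fold enrichment than the region. Members ranked above the middle of every list. Their median percentile was 64.6, 71.5 and 79.99 in control siRNA replicates 1, 2 and 3, and 59.0, 70.1 and 74.8 in NRF2 siRNA replicates 1, 2 and 3. The medians were higher in longer lists, apart from the replicate 2 libraries of nearly equal length. The lists held 27941, 34747 and 41571 peaks in control and 23885, 34986 and 39108 in NRF2 siRNA libraries. A second percentile, ranked among the 6825 members only, does not depend on list length and has its median at 50 in every library by construction. Coding promoters of 10 kb or more stood higher, with medians from 90.9 to 94.3 over the 6 libraries (n = 760). The 7009 shared regions under 10 kb without any annotated start had medians from 51.8 to 74.3, lower than the members in 5 libraries and higher in NRF2 siRNA replicate 2 (71.2).

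The merged promoters were 2472 bp wide at the median (quartiles 1787 and 3924, range 481 to 9961 bp), and together covered 21.7 Mb. A total of 2269 (33.2%) were narrower than 2000 bp and 1118 (16.4%) were 5000 bp or wider. Shared regions without an annotated start were wider, with a median of 3846 bp. In single libraries the peaks covered a median of 1581, 1858 and 2212 bp of a member in control replicates 1, 2 and 3, and 1233, 1812 and 2039 bp in NRF2 siRNA replicates 1, 2 and 3. Each member was mostly a single peak: from 1.60 to 5.49% of members held more than 1 peak in a library. Rank rose with width in every library (plot of rank by width). In control replicate 2, for example, the median percentile was 63.4 under 2 kb, 71.7 at 2 to 3 kb, 74.4 at 3 to 5 kb and 83.8 at 5 to 10 kb. The 4478 single-gene members with a canonical start reached a median of 989 bp upstream and 1209 bp downstream of it, and 60.3% reached further downstream. A library's own peak did not always reach the coding start. It held one in 80.3% of members in NRF2 siRNA replicate 1 and 86.6% in control replicate 1, and in 93.9 to 98.4% in the other libraries, and 5136 members (75.3%) had one inside the peak in all 6.

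**Figure D1:**
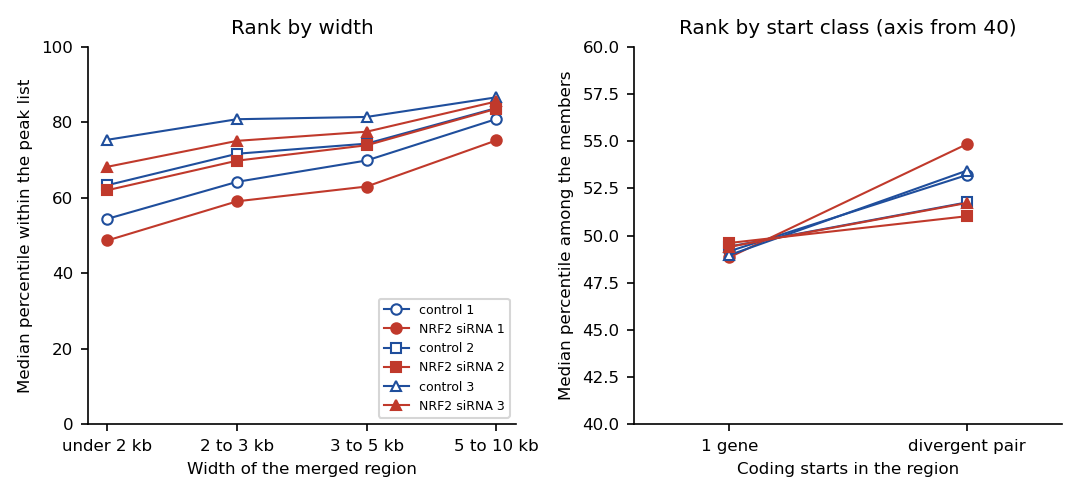
Left, median within-list percentile of fold enrichment (0 to 100) of the members by width of the merged region, for each of the 6 libraries (open blue, control siRNA; filled red, NRF2 siRNA; circle, square and triangle, replicates 1, 2 and 3). Right, median percentile among the members for regions with 1 coding gene and with a divergent pair, on an axis from 40 to 60; all 6 lines rise, from between 48.8 and 49.6 to between 51.0 and 54.8.

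The limits of the rule fell inside a continuum. Just under 10 kb lay the promoter of ID2, an inhibitor of helix-loop-helix factors (chr2:8816498-8826450, 9953 bp), at percentiles of 97.5, 96.9 and 98.8 in control and 97.6, 97.4 and 98.4 in NRF2 siRNA libraries. An intronic start of CSGALNACT1, a chondroitin sulfate enzyme, lay in a region of 9961 bp, which ranked at 94.5 to 96.8 in control and 92.9 to 96.3 in NRF2 siRNA libraries. Just outside lay APOL1, which encodes an apolipoprotein (10000 bp), at 89.6 to 94.7 in control and 89.4 to 96.3 in NRF2 siRNA libraries, and KCNMA1, a potassium channel (10017 bp), at 56.6 to 88.2 and 86.3 to 95.5. A further 1608 coding promoters under 10 kb were called in 5 of the 6 libraries, and 1263 of these were missing from NRF2 siRNA replicate 1 alone, the shortest list.

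Rank within the members differed between libraries by about 10 percentile points at the median, and replicate 1 set much of the spread. For 2 libraries of the same group the median absolute difference was 9.66 percentile points on average (range 6.46 to 11.9 over 6 pairs of libraries). For control against NRF2 siRNA with the same replicate number it was 10.8 points (9.10 to 13.7, 3 pairs), and with other numbers 11.9 points (9.26 to 14.1, 6 pairs). These ranges overlapped through the pairs that include replicate 1. Among the replicate 2 and 3 libraries alone, control differed from control by 7.31 points and NRF2 siRNA from NRF2 siRNA by 6.46 points, while the 4 differences between control and NRF2 siRNA were 9.10, 9.26, 9.57 and 9.99 points, without overlap. The share of members that differed by more than 25 points was 4.86 to 7.87% within a group and 13.5 to 16.8% between groups in these libraries. The values involving NRF2 siRNA replicate 1 were the highest in each kind: 13.7 points against control replicate 1, against 9.57 and 9.10 for pairs 2 and 3. On the within-list scale the same-numbered pairs differed by 11.6, 6.25 and 6.13 points. In shared regions without a start, ranked in the same way among themselves, the difference was 10.1 points within a group, 12.5 between same-numbered pairs and 14.6 between other pairs, so the step from within to between groups was wider there than among the members, a difference that was not tested. Spearman's rho of the members' ranks was 0.74 to 0.91 within a group, 0.65 to 0.82 for same-numbered pairs and 0.64 to 0.82 for the others, over 6825 regions that share the merged coordinates and each library's depth. Averaged over 3 libraries, the percentile among the members changed by less than 10 points in 3863 members (56.6%). Its 5th and 95th percentiles were -25.6 and 24.5 points, 356 members moved down by at least 25 points and 321 moved up by as much.

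**Figure D2:**
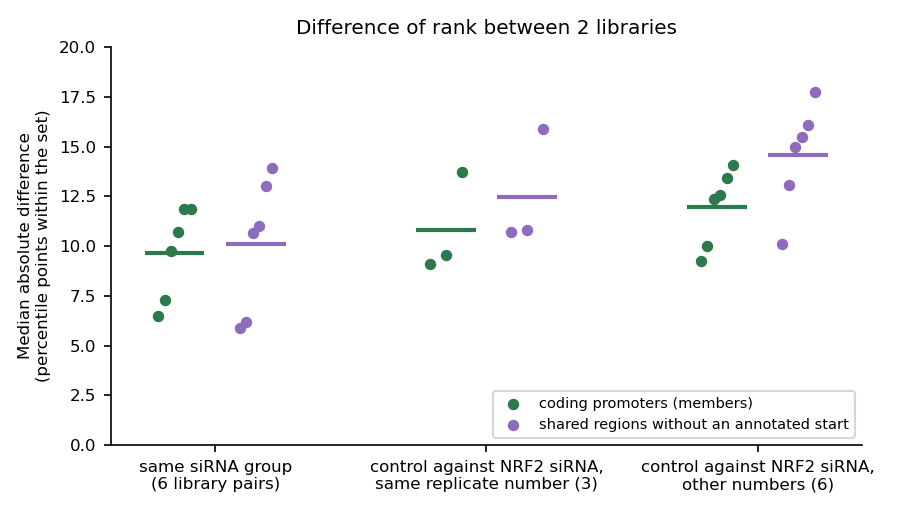
Median absolute difference in percentile between 2 libraries, ranked within the members (green) or within shared regions that hold no annotated start (purple); points are pairs of libraries and bars their means. For the members the means run from 9.66 points within a group to 11.9 points between groups with other replicate numbers. The points overlap through pairs with replicate 1; among replicates 2 and 3 the within-group points (6.46 and 7.31) lie below the between-group ones (9.10 to 9.99).

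The top and bottom of the order moved least. Members with a mean percentile of 80 to 100 among the members had a median SD of 4.82 points over the 6 libraries, against 14.9 points at 40 to 60 and 8.72 points at 0 to 20. The scale is bounded at 0 and 100. The 3 highest promoters were S100A2, a calcium-binding protein of epithelia (99.89 to 99.95 in control and 99.98 to 99.999 in NRF2 siRNA libraries, limma adjusted p = 0.0804, or 0.0450 with the replicate block), MISP, a mitotic spindle protein (99.72 to 99.97), and the divergent promoter of EIF3B, a translation initiation subunit, and SNX8, a sorting nexin (99.69 to 99.97). The 3 lowest were GTPBP10, a GTPase gene (mean 8.90), FAM186A (12.9) and TASP1, a protease gene (15.6). GTPBP10 reached 31.6 in control replicate 3 and at most 8.70 elsewhere, and TASP1 reached 49.0 in control replicate 3 and at most 27.1 elsewhere. Among promoters of middle rank the steadiest on the within-list scale were SYT8, a synaptotagmin (56.4 to 64.5), RAD18, a ubiquitin ligase of DNA damage tolerance (42.3 to 52.9), and the divergent NIPAL3/STPG1 (51.0 to 63.9). Ranked among the members, a measure added after the data were seen, they were EIF3J, another initiation subunit (54.1 to 62.2), U2SURP, a splicing factor (38.2 to 46.3), and a start of ITGB2, an integrin chain (40.3 to 49.1).

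Ranks were then compared region by region. Each of 32673 regions called in at least 3 libraries was ranked in every library, the rank was turned into a standard normal score, and limma was fitted to the scores of all regions. In NRF2 siRNA libraries 56 members had a lower and 22 a higher rank at a Benjamini-Hochberg adjusted p under 0.05, 0.821% and 0.322% of members. Over all regions tested the background was 3.39% lower and 2.01% higher. That background includes regions called in 3 to 5 libraries, whose missing peaks tied for the lowest rank, whereas every member was called in all 6. Among the 16845 regions called in all 6 libraries, members included, 1.36% were lower and 1.28% higher, which is nearer to the members' shares. In the shared regions without a start 1.80% were lower and 2.53% higher, and in coding promoters called in 3 to 5 libraries 2.73% and 0.820%. The median change of the members was -0.03 score units (quartiles -0.21 and 0.14) against 0.02 over all regions, and 570 members had an unadjusted p under 0.05. All 78 called members moved the same way in the 3 pairs. Replicate numbers pair the libraries, and with the replicate as a block 105 members were lower and 80 higher, among them all 78, against a background of 6.62% and 5.72%. How many members limma called changed with the libraries kept. Leaving out control siRNA replicate 2 gave 0 calls in either direction (399 members with an unadjusted p under 0.05), control siRNA replicate 3 gave 1 lower and 0 higher (402 members), and control siRNA replicate 1 gave 31 and 12. Leaving out NRF2 siRNA replicate 2 gave 2 lower and 0 higher (340 members), NRF2 siRNA replicate 3 gave 17 and 2, and NRF2 siRNA replicate 1 gave 80 and 23. Over all regions these 6 fits called 0 to 5.25% lower and 0 to 2.70% higher. Within the siRNA 30 pairs, which are also the pairs whose peak names carry a flow cell identifier, 94 members were lower (1.38%) and 40 higher (0.586%), against 6.04% and 5.26% of all regions. Replicate 1 alone holds siRNA 28 and alone lacks that identifier, so the siRNA and whatever the identifier reflects cannot be told apart. The labels name no batch.

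Promoters that fell stood high in control cells. Of the 56, 34 had a mean within-list percentile over 90 in control libraries, against 741 of all 6825 members. In NRF2 siRNA libraries 23 had a mean under 50, against 1409 of all members. The median of the 56 among the members was 94.4, 92.3 and 88.2 in control replicates 1, 2 and 3 and 28.9, 32.5 and 34.0 in NRF2 siRNA replicates 1, 2 and 3. The 56 were selected on this difference, so these values describe it. ABCB6, a porphyrin transporter, fell furthest (chr2:220081256-220084141, single gene). Its within-list percentile was 98.3, 96.6 and 98.2 in control and 73.2, 50.3 and 58.7 in NRF2 siRNA replicates 1, 2 and 3. All 3 NRF2 siRNA values lay below all control values. Its score changed by -1.67 ± 0.28 (SE; limma adjusted p = 0.0156, or 0.00693 with the replicate block).

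Thioredoxin, encoded by TXN, reduces protein disulfides (chr9:113016634-113021981). Its promoter ranked at 98.9, 99.4 and 99.5 in control and 64.6, 82.5 and 82.9 in NRF2 siRNA libraries. It stood above 98 in every control list and below 83 in every NRF2 siRNA list, and it had the smallest adjusted p of any member (change -1.62 ± 0.19, adjusted p = 0.00677). PIR encodes pirin, an iron-binding nuclear protein (chrX:15509156-15512939), and stood at 97.5, 96.8 and 98.1 in control and 32.2, 76.0 and 69.7 in NRF2 siRNA libraries. The groups were apart, and the siRNA 28 library was the lowest (-1.54 ± 0.22, adjusted p = 0.00965). TALDO1 encodes transaldolase of the pentose phosphate pathway (chr11:746212-749686). Its percentiles were 91.6, 89.3 and 94.7 in control and 15.3, 61.0 and 53.9 in NRF2 siRNA libraries, again apart and again lowest with siRNA 28 (-1.37 ± 0.21, adjusted p = 0.0121).

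MAFG, a small MAF protein with which NRF2 can bind DNA, fell as well (chr17:79879894-79886752). It stood at 90.4, 94.7 and 97.9 in control and 52.0, 55.8 and 64.0 in NRF2 siRNA libraries, without overlap (-1.38 ± 0.22, adjusted p = 0.0134). HHIPL2 (95.04 ± 2.16 in control and 52.9 ± 20.01 in NRF2 siRNA libraries), an intronic start of UNKL, a zinc finger gene (97.2 ± 0.76 and 68.1 ± 1.76), an exonic start of ZDHHC18, a palmitoyltransferase (87.0 ± 4.92 and 36.9 ± 9.91), and an intronic start of NT5C3A, a pyrimidine nucleotidase (84.0 ± 3.78 and 27.4 ± 22.4), also fell (SD, n = 3 each). The canonical start of ZDHHC18 lay 23674 bp away, that of NT5C3A 26793 bp and that of UNKL 35583 bp. Their adjusted p-values in limma were 0.0113 for HHIPL2, 0.0127 for UNKL, 0.0481 for ZDHHC18 and 0.0101 for NT5C3A. For each called promoter chosen by the naming rule, an exact two-sided permutation test of the percentiles gave p = 0.1, the smallest that 3 against 3 libraries allow.

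**Figure D3:**
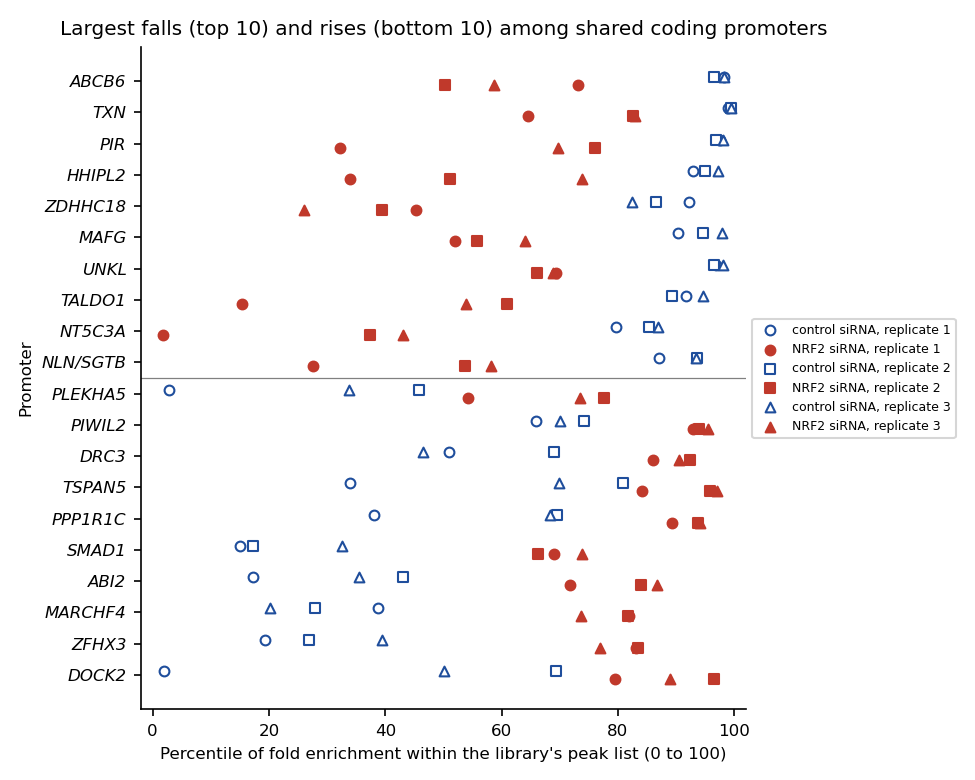
Within-list percentile of fold enrichment (0 to 100) in each library for the 10 members with the largest falls (upper rows) and the 10 with the largest rises (lower rows); open blue, control siRNA, filled red, NRF2 siRNA, and marker shape the replicate. In all 20 rows the 3 red points lie on one side of the 3 blue points. The rows were selected for large changes past the limma threshold with the same direction in all 3 pairs, so this separation is not independent of the selection. TXN falls from at least 98.9 to at most 82.9 and SMAD1 rises from at most 32.6 to at least 66.2.

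Promoters of NRF2 target genes made up 9 of the 56 falls and 0 of the 22 rises. The list of target genes, chosen with earlier results of these data known, had 48 annotated genes, of which 26 had a start in 30 members. Of these 30 regions 9 were lower and 0 higher (limma; 20 had an unadjusted p under 0.05, and with the block 12 were lower and 1 higher), and 23 of 30 changes were negative, with a median of -0.57 against -0.03 over all members and 0.02 over all regions. Among all members 0.821% were lower and 0.322% higher, and among all regions tested 3.39% and 2.01%. An unadjusted p under 0.05 was found in 8.35% of members and 22.5% of all regions. With the block 1.54% of members were lower and 1.17% higher, and of all regions 6.62% and 5.72%. Apart from TXN, PIR and TALDO1 the targets that fell were SRXN1, which repairs oxidised peroxiredoxins, CBR1, a carbonyl reductase, BLVRB, a biliverdin reductase, OSGIN1, an oxidative stress response gene, NR0B1, an orphan nuclear receptor, and LRP8, a lipoprotein receptor. SRXN1 (chr20:630668-637752) ranked at 94.1, 92.3 and 92.1 in control and 56.8, 57.9 and 70.7 in NRF2 siRNA libraries, with the groups apart (-1.06 ± 0.21, adjusted p = 0.0267). CBR1 (chr21:37441226-37443556) ranked at 94.9, 93.9 and 96.1 and at 57.8, 70.2 and 75.9, again apart (-1.08 ± 0.19, adjusted p = 0.0182). OSGIN1 went from 97.4 ± 2.39 to 77.3 ± 3.41 (adjusted p = 0.0308), LRP8 from 95.9 ± 1.35 to 70.2 ± 5.49 (0.0155), NR0B1 from 87.9 ± 9.26 to 47.9 ± 25.6 (0.0294) and BLVRB/SPTBN4 from 95.2 ± 0.28 to 77.5 ± 6.46 (0.0430; SD, n = 3 each, limma).

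Other targets of the list did not pass. GCLM, the modifier subunit of glutamate-cysteine ligase (chr1:94369700-94375849), stood at 73.1, 78.8 and 81.8 in control and 38.0, 40.4 and 54.4 in NRF2 siRNA libraries. The groups did not overlap, and the adjusted p was 0.0619, or 0.0366 with the replicate block (change -0.80 ± 0.21). An exonic start of TXNRD1, thioredoxin reductase, 35767 bp from the canonical one (chr12:104642722-104652584) had 82.4 ± 7.91 and 46.7 ± 14.0 (adjusted p = 0.0747, or 0.0324 with the block). The canonical TXNRD1 promoter, no member at 11385 bp, had 99.4 ± 0.19 and 96.4 ± 0.12 (adjusted p = 0.0833, or 0.0482 with the block). SLC6A6, a taurine transporter, had the opposite sign, at 38.3 ± 3.06 and 64.2 ± 5.196 (0.71 ± 0.26, adjusted p = 0.139, or 0.0413 with the block). SQSTM1, an autophagy receptor, stood at 99.8 ± 0.08 and 97.5 ± 1.26 at its own promoter, without overlap (adjusted p = 0.0652, or 0.0410 with the block). RXRA, a nuclear receptor that partners others, stood at 89.4 ± 4.50 and 89.2 ± 3.18. A further 17 target genes had their shared promoter only in regions of 10 kb or more and were not members. NQO1, the quinone reductase, was among them (10729 bp), at 99.3 ± 0.19 in control and 92.3 ± 4.37 in NRF2 siRNA libraries (-0.94 ± 0.23, adjusted p = 0.0508, or 0.0223 with the block).

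Of the 9 member regions of NRF2 circuit genes only MAFG passed. KEAP1 (chr19:10610903-10614635) stood at 93.2, 96.8 and 99.4 in control and 90.5, 88.6 and 93.7 in NRF2 siRNA libraries, and the groups overlapped (-0.57 ± 0.26, adjusted p = 0.231). CUL3, the scaffold of the ligase, had 98.0 ± 0.88 and 99.2 ± 0.04 at one region and 60.04 ± 6.79 and 36.5 ± 18.5 at another, and neither passed. The member that carries the name NFE2L2, the gene of NRF2, was a divergent region shared with AGPS, an enzyme of ether lipid synthesis (chr2:178256924-178258491). It holds alternative NFE2L2 starts, with closest opposite starts 4 bp apart, and stood at 45.4, 55.7 and 71.7 in control and 43.9, 47.7 and 66.9 in NRF2 siRNA libraries, with overlap (adjusted p = 0.944). The canonical NFE2L2 promoter was 17722 bp wide and no member (98.1 ± 0.16 and 96.5 ± 1.68, adjusted p = 0.602). CEBPB, at 12175 bp, was no member either (91.1 ± 2.89 and 80.7 ± 2.82, adjusted p = 0.245). An siRNA acts on the messenger RNA, so acetylation at the NFE2L2 promoter is no check of the knockdown.

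**Figure D4:**
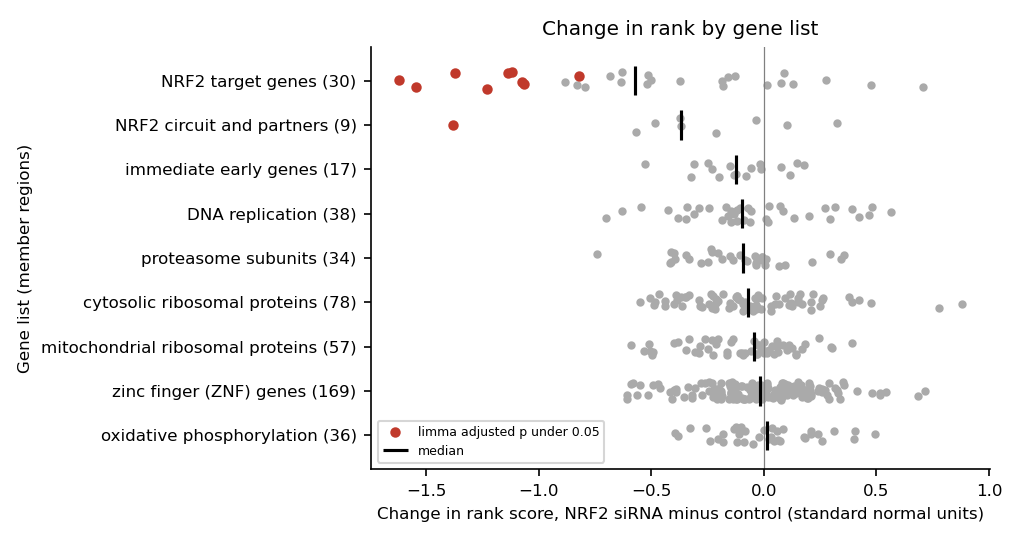
Change in rank score (NRF2 siRNA minus control, standard normal units) of each member region by gene list, with the median as a bar and regions past the limma threshold in red. NRF2 target genes have the lowest median, -0.57, and 9 red points of 30; the lists of the proteasome, replication, respiratory chain, ribosomes, zinc fingers and immediate early genes have medians from -0.12 to 0.01 and no red point.

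Promoters of housekeeping complexes held 0 calls, at a rate of calls over all members of 0.821% lower and 0.322% higher, at which lists of this size hold few or none. Proteasome genes had a member for 32 of 33 genes, and of 34 regions 0 were called in either direction (median change -0.09). The cytosolic ribosomal proteins had a member for 74 of 80 genes (78 regions, 0 called, median -0.07), and the mitochondrial ones for 56 of 78 (57 regions, 0 called, -0.04). Oxidative phosphorylation (36 regions, 0.01), DNA replication (38 regions, -0.10) and immediate early genes (17 regions, -0.12) had 0 called as well, and so had the 169 regions of 164 zinc finger genes (-0.02). Over these 7 lists limma gave 27 of 429 regions with an unadjusted p under 0.05 (6.29%), against 8.35% of all members and 22.5% of all regions tested, so the counts say little about these lists. With the replicate block 1 was lower and 2 were higher. The median absolute change among the members was 7.18 to 9.86 points in these lists other than the immediate early genes, where it was 4.91 points, and 27.8 points in the NRF2 target list.

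The 22 members that rose had low median ranks in control libraries. Their median percentile among the members was 13.5, 19.3 and 6.67 in control and 81.1, 83.4 and 79.8 in NRF2 siRNA replicates 1, 2 and 3. Of the 22, 11 had a mean within-list percentile under 50 in control, against 917 of all 6825 members. The 22 were selected on this difference, so these values describe it. DOCK2, which activates RAC in leukocytes, rose most, at an exon 58574 bp from its canonical start (chr5:169121184-169125754). It ranked at 1.99, 69.4 and 50.1 in control and 79.5, 96.6 and 89.0 in NRF2 siRNA libraries. Every NRF2 siRNA value was above every control value, although control values were widely spread (1.47 ± 0.32, adjusted p = 0.0346). The call was lost narrowly with lists of equal length (adjusted p = 0.0515), with only regions called in all 6 libraries (0.0509) and within the siRNA 30 pairs (0.0505). ZFHX3, a homeobox transcription factor, was called at an upstream start 46418 bp from the canonical one (chr16:73127881-73131428). It stood at 19.3, 27.0 and 39.5 in control and 83.1, 83.5 and 77.0 in NRF2 siRNA libraries, well apart (1.42 ± 0.23, adjusted p = 0.0134).

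MARCHF4, a membrane ubiquitin ligase, rose at its canonical start (chr2:217235517-217239889), from 38.8, 27.9 and 20.1 in control to 82.0, 81.7 and 73.7 in NRF2 siRNA libraries (1.42 ± 0.33, adjusted p = 0.0406). ABI2, an adaptor of actin assembly, rose at an exon 74312 bp from its canonical start (chr2:204264371-204270800), from 17.2, 43.0 and 35.5 to 71.7, 84.0 and 86.7 (1.37 ± 0.22, adjusted p = 0.0132). SMAD1, a transducer of BMP signals, rose at an intron (chr4:146465659-146468235), from 15.1, 17.3 and 32.6 to 68.9, 66.2 and 73.9 (1.25 ± 0.23, adjusted p = 0.0205). In none of these 3 did the groups overlap. The other named rises were PPP1R1C, a phosphatase inhibitor (58.6 ± 17.8 in control and 92.4 ± 2.64 in NRF2 siRNA libraries), TSPAN5, a tetraspanin (61.6 ± 24.6 and 92.3 ± 7.11), DRC3, a gene of ciliary dynein regulation (55.5 ± 11.95 and 89.7 ± 3.25), PIWIL2, a germline Argonaute (70.0 ± 4.10 and 94.2 ± 1.29), and PLEKHA5 (27.4 ± 22.2 and 68.4 ± 12.5), with adjusted p from 0.0156 for PPP1R1C to 0.0409 for TSPAN5 (SD, n = 3 each, limma). All of these lay away from the canonical start of their gene. PPP1R1C was called at an upstream start 31294 bp away and DRC3 at an exon 19903 bp away. TSPAN5, PIWIL2 and PLEKHA5 were called at introns 173079, 77483 and 143443 bp away.

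Most of the promoters that rose did not hold the main start of their gene. A canonical start, the annotation's representative transcript of a gene, lay in 5759 of 6825 members (84.4%), in 39 of the 56 that fell (69.6%) and in 4 of the 22 that rose (18.2%). Of the other 18 that rose, 11 had their start in an intron of the canonical transcript, 4 in an exon and 3 upstream. Among the 1066 members without a canonical start 1.59% were lower and 1.69% higher, and among the 5759 with it 0.677% and 0.0695%. With the replicate block these shares were 3.10% and 5.25% without a canonical start, and 1.25% and 0.417% with it. Members without a canonical start were wider (median 3872 bp against 2341 bp). A CpG ratio of at least 0.6 was found in 86.6% of start windows with a canonical start and 25.1% without, in 44.6% of windows that fell and in 9.09% of those that rose. The window had a median of 61.2% G and C in members that fell and 47.3% in those that rose. GC boxes were in 26 of 56 and 2 of 22 windows, and AP-1 sites in 9 of 56 and 5 of 22. A coding start lay inside the library's own peak in all 6 libraries for 36 of the 56 and 10 of the 22.

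**Figure D5:**
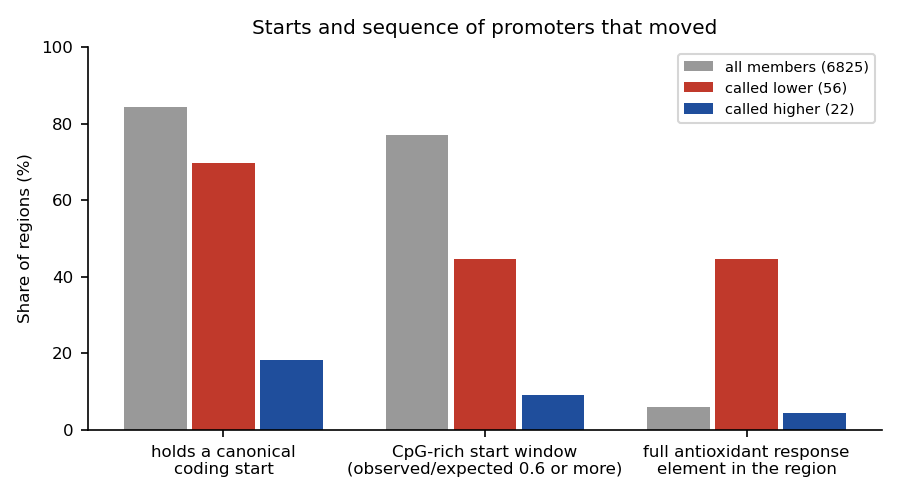
Share of regions (%) that hold a canonical coding start, whose 300-base start window has an observed to expected CpG ratio of at least 0.6, and that hold the full antioxidant response element on either strand; grey, all 6825 members, red, the 56 called lower, blue, the 22 called higher under NRF2 siRNA. The full element, here the letters TGACTCAGC chosen after the data were seen, is in 44.6% of the red group, 6.12% of all members and 4.55% of the blue group. The core TGACNNNGC, not drawn, is in 89.3%, 64.9% and 68.2%.

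Divergent promoters made up 969 of the 6825 members, or 14.2% (95% Wilson interval 13.4 to 15.0%, counting error only). In these, starts of coding genes on opposite strands pointed away from each other and lay at most 1000 bp apart. A further 5525 members held 1 coding gene, 227 several genes on 1 strand and 104 genes on opposite strands in another arrangement. The opposite starts were close, with a median of 97 bp (quartiles 48 and 193), and 844 of 969 pairs (87.1%) lay within 300 bp. Of the single-gene members, 1201 (21.7%) had the start of a long noncoding RNA on the opposite strand within 1000 bp upstream. From the canonical start, divergent members reached a median of 1223 bp upstream, toward the partner gene, and 915 bp downstream (1744 genes). The stretch upstream of 1 gene of a pair holds the partner's downstream stretch, so the class definition favours a longer upstream reach. Divergent windows were richer in CpG, with 91.6% at a ratio of at least 0.6 against 74.5% of single-gene windows. They held the ETS site more often (12.8% against 6.88%), the nuclear respiratory factor 1 core more often (5.16% against 3.403%) and the AP-1 site less often (2.06% against 5.57%), given as shares without a test. A canonical start lay in 99.3% of divergent and 81.0% of single-gene members. Among members with one, the shares were 91.8% and 86.2% for the CpG ratio, 12.9% and 8.15% for the ETS site, 5.198% and 3.95% for the nuclear respiratory factor 1 core, and 1.98% and 3.55% for the AP-1 site.

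Divergent promoters ranked slightly higher than single-gene promoters in every library. Their median within-list percentile was 66.4, 72.3 and 81.1 in control and 62.6, 70.6 and 75.6 in NRF2 siRNA replicates 1, 2 and 3, against 64.1, 71.2 and 79.6 and 58.1, 69.8 and 74.6 for single-gene promoters. The difference was 1.84 points on average (SD 1.41 over 6 libraries), from 0.709 in NRF2 siRNA replicate 2 to 4.48 in NRF2 siRNA replicate 1. The classes also differed in the share with a canonical start (99.3% and 81.0%). Rank and width were not compared among members with a canonical start only. Among peaks with a q-value of at most 1e-05 it turned to -2.32 points, with 2238 members left. Divergent regions were no wider, at a median of 2235 bp against 2526 bp, although each held the starts of at least 2 genes. Of the 969, 7 fell (0.722%) and 0 rose, against 0.851% and 0.398% of single-gene members (limma; 51 of the 969 had an unadjusted p under 0.05, and with the block 11 fell and 2 rose).

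NLN/SGTB changed most among them (chr5:65017372-65024823). NLN encodes a peptidase that degrades neurotensin and SGTB a co-chaperone, and their closest starts were 96 bp apart. The region ranked at 87.0, 93.5 and 93.5 in control and 27.6, 53.6 and 58.1 in NRF2 siRNA libraries, without overlap (-1.32 ± 0.19, adjusted p = 0.0105). ACYP1/ZC2HC1C, an acylphosphatase and a zinc finger gene 94 bp apart (chr14:75534525-75536712), stood at 97.1, 93.2 and 96.5 and at 43.1, 67.0 and 74.3, also apart (-1.29 ± 0.21, adjusted p = 0.0140). CEP89/FAAP24, a centrosomal gene and a gene of the Fanconi anaemia pathway 218 bp apart (chr19:33462297-33463838), stood at 75.2, 84.1 and 83.9 in control and 0.0398, 42.5 and 56.5 in NRF2 siRNA libraries. It was nearly the weakest peak of the siRNA 28 list (-1.04 ± 0.19, adjusted p = 0.0219, or 0.0561 when only regions called in all 6 libraries were ranked). The other divergent promoters that fell were BLVRB/SPTBN4 and, named after their values were seen, SLC38A6/TRMT5, DIMT1/IPO11 and LEO1/MAPK6. Since 1 region serves a pair of genes, its value says nothing about which of them it belongs to.

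The covered length of a promoter was compared with the same model over all 16845 shared regions, as log2 of the bases under a library's peaks centred on the median of that library. No member was narrower or wider in NRF2 siRNA libraries (limma, 0 of 6825 at an adjusted p under 0.05, smallest 0.0658; background 0%). At an unadjusted p under 0.05 there were 453 members (6.64%), of which 340 were narrower and 113 wider, against 11.5% of all shared regions. With the replicate block there were 0 calls as well (446 narrower and 159 wider at an unadjusted p under 0.05). With the trend and robust options 1 member was narrower, against 9 narrower and 1 wider of all 16845 shared regions. Of the 56 members that fell in rank, 55 had a negative difference in length, with a median of -0.60 log2 units, and of the 22 that rose, 21 had a positive one, with a median of 0.71, against -0.06 over all members. Rank and length come from the same peaks, so these are not independent. TXN was covered for 4839, 4864 and 4934 bp in control and 2099, 2875 and 3681 bp in NRF2 siRNA libraries, and ZDHHC18 for 3323, 2970 and 2744 bp and 341, 496 and 1188 bp. SMAD1 was covered for 880, 259 and 860 bp in control and 1521, 2496 and 2154 bp in NRF2 siRNA libraries. In these 3, none of which passed on length, the groups lay apart.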

How the data were processed

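H3K27ac peaks of 3 control siRNA and 3 NRF2 siRNA libraries were used. Per the labels and the study's methods, the authors aligned reads with Bowtie2 2.2.6 to hg19, dropped poorly mapped ones with SAMtools, used MACS2 2.1.0.20151222 in its broad mode on each library and took out blacklisted regions. The deposited lists give each peak an integer score, a fold enrichment (ratio) and p- and q-values as −log10. Scores and p-values were not used. Read depth is not in the files; the study lists lower totals for replicate 1, and precision was taken from the spread between libraries.

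Starts came from GENCODE 44 lifted to GRCh37, in which all 24 chromosomes matched and 0 peaks passed an end. The annotation decides which regions count as promoters, and ranks within a list depend on its length. limma 3.58.1 (lmFit, eBayes, Benjamini-Hochberg, threshold 0.05) was tested on simulated data. Replicate numbers in the titles pair the libraries (same-numbered deviations correlated at r = 0.398, 0.199 and 0.363). The study describes the 3 replicates as independent experiments. Named promoters were the 10 largest falls and rises past the threshold in all 3 pairs, the 3 most changed divergent ones, those highest, lowest and steadiest in rank or nearest 10 kb, called members of the NRF2 lists, and 7 fixed genes. Members, lists and motifs were chosen with earlier results of these data known. Alternatives are given at the end. A q-value of at most 1e-05 is the stricter threshold. The start window of 1 named promoter is not reported here.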

Additional observations from a re-analysis of the deposited data

Results flagged for a closer look

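The promoter region AGPS/NFE2L2 moved up by 0.17 score units in the siRNA 28 pair and down in both siRNA 30 pairs (mean -0.14). The opposite directions singled it out. They are on the score scale only, since the within-list percentile of this region fell short of control in each of the 3 pairs. The difference was not tested, and the siRNA 28 pair is a single pair of libraries, the only one without a flow cell identifier in its peak names.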

How the results depend on the processing

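The direction of 28 of 28 called named promoters was the same under every alternative run, but some calls were lost: ZDHHC18 with equal list lengths (limma adjusted p = 0.0665) and the length-weighted mean (0.0507), PLEKHA5 with the siRNA 30 pairs (0.0525), BLVRB/SPTBN4 at the stricter q-value (0.0957), and DOCK2 and CEP89/FAAP24 as given above. Against 56 members lower and 22 higher, the replicate block gave 105 and 80 (6.62% and 5.72% of all regions tested), lists cut to equal length 91 and 50 (4.33% and 2.85%), peaks at a stricter q-value (1e-05 or less) 116 and 51 (2.56% and 1.57%), ranking only the regions called in all 6 libraries 113 and 42 (2.19% and 2.02%), the trend and robust options 132 and 67 (4.59% and 3.596%), and the siRNA 30 pairs alone 94 and 40 (6.04% and 5.26%). Block and equal lengths together, an alternative added after the data were seen, gave 77 and 52 (3.66% and 2.79%). Leaving out 1 library gave 0 to 80 lower, 0 to 23 higher and 0 to 28 of the 32 named promoters past the threshold, against 28 with all libraries. A fit without 1 library assumes that the other group's spread holds. The cause was not tested. Among named promoters the blocked fit changed only the calls given beside their results. AGPS/NFE2L2, not called, turned from -0.04 to 0.092 without NRF2 siRNA replicate 2 and to 0.035 without control siRNA replicate 3, and was -0.115 to 0.092 over the 6 fits without 1 library. Of width, the trend and robust options called 1 member narrower, against 9 narrower and 1 wider of all 16845 shared regions. The stricter q-value left 2238 members, of which 16.6% were divergent and 15.8% had the element core, and turned the divergent minus single-gene difference from 1.84 to -2.32 points. Windows of 500 bp on both sides held the core in 36.0%. Pair 1 on its own differed by 11.6 points, against a mean of 7.998 over 3 pairs. Narrowing the limit to 5 kb left 5707 members and calling in at least 5 libraries gave 8433. Counting only starts of protein-coding transcripts left 6398. With 3 libraries a group and no counts, small changes of rank could not be resolved.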
